A study of Mus musculus with 40 samples.

Results

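Rpl3 and Rpl3l, the paralogous pair of genes that encode alternative forms of ribosomal protein uL3, were followed in mRNA of the mouse extensor digitorum longus (EDL), a fast muscle of the lower hindlimb. Members were the entries of the deposited gene tables with these symbols, 2 of 22844 genes, and both passed the filter on low counts, which 13543 genes passed. The study deposited 40 poly(A) RNA libraries, 1 per muscle, in 8 groups of 5. Control mice (CON, labelled Tsc1fl/fl) were littermates with floxed Tsc1 that lacked Cre recombinase, and TSCmKO mice had lost Tsc1, an inhibitor of the kinase complex mTORC1, in their skeletal muscle fibers. All mice carried the strain label Tsc1tm1Djk/J. The promoter that drives Cre is not given in the sources used here. Mice were 3 or 9 months old and were injected intraperitoneally for 3 days before dissection with vehicle (3mCON, 3mTSCmKO, 9mCON, 9mTSCmKO) or with the mTORC1 inhibitor rapamycin (3mCON+RM, 3mTSCmKO+RM, 9mCON+RM, 9mTSCmKO+RM). The labels give the dose as 4 mg per kg, whereas the study text gives a higher one, so the dose is uncertain.

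Protein uL3 is one of the largest proteins of the large ribosomal subunit, where it reaches towards the peptidyl transferase center. Rpl3 encodes the form found in nearly all tissues, whereas Rpl3l encodes a form restricted to heart and skeletal muscle, and a ribosome holds one copy of either protein. In muscle the pair is known to move in opposite directions during growth, with Rpl3 more abundant in immature or hypertrophying fibers and Rpl3l in mature ones. Ribosomal protein mRNAs are a classic output of mTORC1, mostly through their translation rather than their amount.

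Rpl3 (ENSMUSG00000060036) is a protein-coding gene at chr15:80077791-80091868 on the minus strand of GRCm38, and Rpl3l (ENSMUSG00000002500) lies at chr17:24727820-24736143 on the plus strand. The longest coding model of each has 10 exons and a coding sequence of 1212 nt in Rpl3 and 1224 nt in Rpl3l, which were identical at 74.4% of 1208 aligned positions. The longest run of identical bases was 22 nt, and 0 stretches of 31 nt, the word length on which reads were assigned, were shared by the paralogs. Reads of the pair could therefore be told apart. To show how the genes differ, a stretch of 90 nt is given for each from the exonic coding sequence in GENCODE M21, numbered from the A of the start codon, with capitals at bases that differ between the paralogs. Bases 856 to 945 were the least alike, with 56 identical.
Rpl3: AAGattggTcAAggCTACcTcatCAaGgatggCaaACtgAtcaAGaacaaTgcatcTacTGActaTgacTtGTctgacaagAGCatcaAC
Rpl3l: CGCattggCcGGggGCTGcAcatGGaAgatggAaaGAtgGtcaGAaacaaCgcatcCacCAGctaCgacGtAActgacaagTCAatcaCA
Bases 685 to 774 were the most alike, with 74 identical.
Rpl3: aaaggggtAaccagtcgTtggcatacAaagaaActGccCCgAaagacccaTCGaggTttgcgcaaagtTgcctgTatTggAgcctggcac
Rpl3l: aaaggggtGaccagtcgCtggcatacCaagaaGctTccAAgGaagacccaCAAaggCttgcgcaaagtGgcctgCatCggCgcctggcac

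Even in this most alike stretch differing bases recurred every few positions. Copies elsewhere were another matter. Of 1660 words of 31 nt in Rpl3 transcripts, 69.7% also occurred in transcripts of genes that are not rows of the deposited table, whereas 0% of the 1612 words of Rpl3l did. Reads from such copies, if they were present, would have been counted as Rpl3, so the level of Rpl3 is the less certain of the pair.

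Total estimated counts per library ran from 8883870 to 35224669. Rpl3 received 610 to 3160 counts per library and Rpl3l received 3339 to 13602. Counting error alone was then at most 4.05% for Rpl3 and 1.73% for Rpl3l, below the spread between replicates in every group. Tsc1 was lower in TSCmKO than in CON in all 4 matched comparisons, by 1.55 to 1.99 on the log2 scale in edgeR (adjusted p from 2.49e-11 to 2.33e-09), with no library of one genotype in the range of the other. Fast fiber markers identified the tissue, with a summed level of at least 183121 TPM (an abundance scaled by transcript length and by library total) in every library. According to the labels, 3-month libraries had mean inserts of 175 to 239 nt and 9-month libraries of 223 to 308 nt. Age and insert size therefore cannot be fully told apart.

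Levels of the individual genes are given first as TMM-scaled CPM, counts scaled to a common library total and corrected for composition, which serve to compare one gene between libraries. In 3mCON, Rpl3l was at 369, 400, 374, 405 and 391 CPM, and in 3mTSCmKO at 224, 273, 289, 241 and 307 CPM. All 5 TSCmKO libraries lay below all 5 control libraries. In 9mCON, Rpl3l was at 310, 517, 304, 346 and 292 CPM, and in 9mTSCmKO at 242, 207, 266, 197 and 204 CPM. Again the genotypes did not overlap, although replicate 2 of 9mCON stood apart from the other 4 control libraries. With rapamycin, Rpl3l was at 354, 432, 375, 368 and 342 CPM in 3mCON+RM and at 339, 318, 300, 256 and 295 CPM in 3mTSCmKO+RM. In 9mCON+RM it was at 512, 339, 338, 345 and 407 CPM, and in 9mTSCmKO+RM at 375, 267, 226, 247 and 293 CPM. The treated genotypes were separated by a narrow gap at 3 months and overlapped at 9 months through replicate 1 of 9mTSCmKO+RM. The share of all genes whose genotypes were free of overlap is not given here.

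Rpl3, the ubiquitous form, was the lower of the pair in every library. It was at 68.6, 55.5, 72.1, 66.2 and 59.1 CPM in 3mCON and at 62.3, 58.5, 67.2, 85.0 and 65.6 CPM in 3mTSCmKO. At 9 months it was at 75.4, 67.8, 62.9, 63.2 and 68.0 CPM in 9mCON and at 71.8, 77.5, 93.2, 60.4 and 81.8 CPM in 9mTSCmKO. The genotypes overlapped at both ages. With rapamycin Rpl3 was at 75.2, 69.9, 74.7, 90.1 and 85.1 CPM in 3mCON+RM and at 69.6, 75.1, 79.3, 75.4 and 86.9 CPM in 3mTSCmKO+RM. In 9mCON+RM it was at 71.5, 62.7, 74.2, 54.7 and 44.2 CPM, and in 9mTSCmKO+RM at 70.2, 50.1, 63.9, 59.8 and 65.8 CPM. No pair of groups that was compared was free of overlap for Rpl3.

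**Figure D1:**
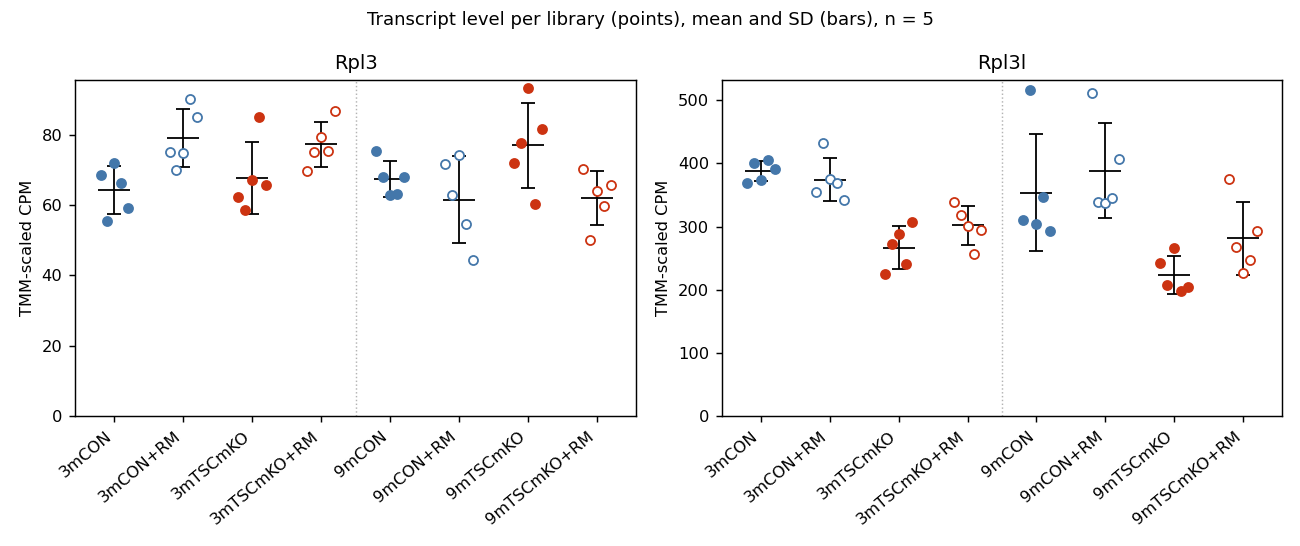
Level of Rpl3 (left) and Rpl3l (right) in each library, in TMM-scaled CPM on axes that start at 0, for the 8 groups of 5. Filled points are vehicle and open points rapamycin, blue is CON and red TSCmKO, and black bars give the mean and SD. Rpl3l of 3mTSCmKO (224 to 307 CPM) and 9mTSCmKO (197 to 266 CPM) sits below its controls, whereas Rpl3 overlaps between genotypes.

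Ordered by mean, Rpl3l was highest in 9mCON+RM (388 ± 75.1 CPM, SD, n = 5) and 3mCON (388 ± 16.0), followed by 3mCON+RM (374 ± 34.5), 9mCON (354 ± 93.2), 3mTSCmKO+RM (302 ± 30.9), 9mTSCmKO+RM (282 ± 57.7), 3mTSCmKO (267 ± 33.9) and 9mTSCmKO (223 ± 29.5). The means of all 4 control groups thus stood above those of all 4 TSCmKO groups, and all neighbours in this order overlapped. The last step, from 3mTSCmKO to 9mTSCmKO, was the only one to exceed the pooled SD of the groups it joined. The order of Rpl3 was 3mCON+RM (79.0 ± 8.29 CPM), 3mTSCmKO+RM (77.3 ± 6.39), 9mTSCmKO (76.9 ± 12.1), 3mTSCmKO (67.7 ± 10.2), 9mCON (67.5 ± 5.04), 3mCON (64.3 ± 6.84), 9mTSCmKO+RM (61.9 ± 7.62) and 9mCON+RM (61.5 ± 12.3). Every step in the order of Rpl3 was smaller than the pooled SD of its neighbours.

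The effect of muscle fiber Tsc1 loss was tested with edgeR on all genes. Rpl3l fell in 9mTSCmKO against 9mCON (log2 fold change -0.66, SE 0.139, adjusted p = 0.000233), to a level 0.631 times that of controls (95% interval 0.519 to 0.768). It also fell in 3mTSCmKO against 3mCON, by 0.54 (SE 0.139, adjusted p = 0.00416), to 0.688 times the control level (0.566 to 0.836). These calls stand against a background of 37.9% of genes called at 9 months, 19.1% higher and 18.9% lower, and 19.8% called at 3 months, 11.4% higher and 8.32% lower. The genotype effect on Rpl3l did not differ detectably between ages, with an interaction of -0.12 (95% interval -0.52 to 0.27, adjusted p = 0.778), where 4.94% of genes were called. With each library left out in turn, this interaction ranged from -0.19 to 0.05. Rpl3 was 1.14 times the control level at 9 months (95% interval 0.962 to 1.35, adjusted p = 0.221) and 1.05 times in 3-month mice (0.888 to 1.25, adjusted p = 0.726), and neither difference passed the threshold in edgeR. In these bulk samples fewer cells of a type and less RNA per cell cannot be told apart.

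Between genotypes under rapamycin, Rpl3l was still lower in 9mTSCmKO+RM than in 9mCON+RM (log2 fold change -0.46, SE 0.139, adjusted p = 0.0136 in edgeR), where 20.6% of genes were called and 9.33% were called lower. This call was lost when 9mCON+RM replicate 1 (-0.34, adjusted p = 0.0795) or 9mTSCmKO+RM replicate 3 (-0.39, adjusted p = 0.0524) was left out, and in a fit of these groups alone (-0.45, adjusted p = 0.0640). At 3 months the difference of -0.31 (95% interval -0.59 to -0.03, adjusted p = 0.174) did not pass, although the CPM values did not overlap, where 5.67% of genes were called higher and 4.36% lower. For Rpl3 the same comparisons gave 0.01 (-0.24 to 0.26) at 9 months and -0.03 (-0.28 to 0.21) at 3 months.

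In 9mTSCmKO the log2 fold changes of the paralogs with 3 days of rapamycin had opposite signs, and their difference was tested through the ratio given further on. Rpl3 fell in 9mTSCmKO+RM against 9mTSCmKO by 0.31 (SE 0.122, adjusted p = 0.0442 in edgeR), where 32.6% of all genes were called, 15.8% higher and 16.8% lower. This was its single call among 12 comparisons, and it rests on few libraries, since leaving out any one of 5 libraries took the adjusted p to between 0.0594 and 0.152. These were replicates 3 and 5 of 9mTSCmKO and replicates 2, 3 and 4 of 9mTSCmKO+RM, and the size ranged from -0.41 to -0.24 over all 10 such fits. It also missed the threshold without the filter on low counts, with insert size as a term (a fit without 9mTSCmKO+RM replicate 5, whose label gives no insert size), in a fit of the compared groups alone and in limma on log2(TPM + 1), with an adjusted p of 0.0522 to 0.109. Rpl3l had a log2 fold change of 0.33 in the same comparison (95% interval 0.05 to 0.62, adjusted p = 0.0611), just short of the threshold. In 3mTSCmKO+RM against 3mTSCmKO, where 23.6% of genes were called, the values were 0.19 for Rpl3 (-0.06 to 0.43) and 0.18 for Rpl3l (-0.10 to 0.46). In control muscle they were -0.13 (-0.38 to 0.11) and 0.13 (-0.15 to 0.42) at 9 months, where 11.8% of genes were called, and 0.30 (0.05 to 0.54, adjusted p = 0.387) and -0.05 (-0.33 to 0.23) at 3 months, where 0.679% were called. The difference of the rapamycin effect between genotypes was not called for either gene at either age in edgeR, with unadjusted p of 0.253 to 0.534. At 9 months it was -0.18 for Rpl3 (-0.53 to 0.17) and 0.20 for Rpl3l (-0.20 to 0.60). At 3 months it was -0.11 for Rpl3 (-0.45 to 0.24) and 0.23 for Rpl3l (-0.17 to 0.62). The share of genes with such an interaction was 4.87% at 9 months and 3.45% at 3 months.

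Set against vehicle controls, treated TSCmKO muscle had Rpl3l at 0.796 times the level of 9mCON (95% interval 0.655 to 0.967, adjusted p = 0.0660 in edgeR, 31.9% of genes called) and at 0.778 times that of 3mCON (0.640 to 0.945, adjusted p = 0.0680, 16.7% of genes called). These comparisons share their control libraries with those of vehicle-treated TSCmKO above. With age, Rpl3l was at 0.912 times the 3-month level in CON (0.751 to 1.11) and at 0.837 times in TSCmKO (0.689 to 1.02), neither of which passed, beside 1.02% of genes called in CON and 37.4% in TSCmKO. Rpl3 was at 1.05 times (0.884 to 1.24) and 1.14 times (0.958 to 1.35) its 3-month level. With insert size as a term the log2 difference of Rpl3l with age was -0.01 in CON, against -0.13 without the term, and -0.085 in TSCmKO, against -0.26. For Rpl3 in CON it was 0.07 and turned to -0.02 in limma on log2(TPM + 1).

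**Figure D2:**
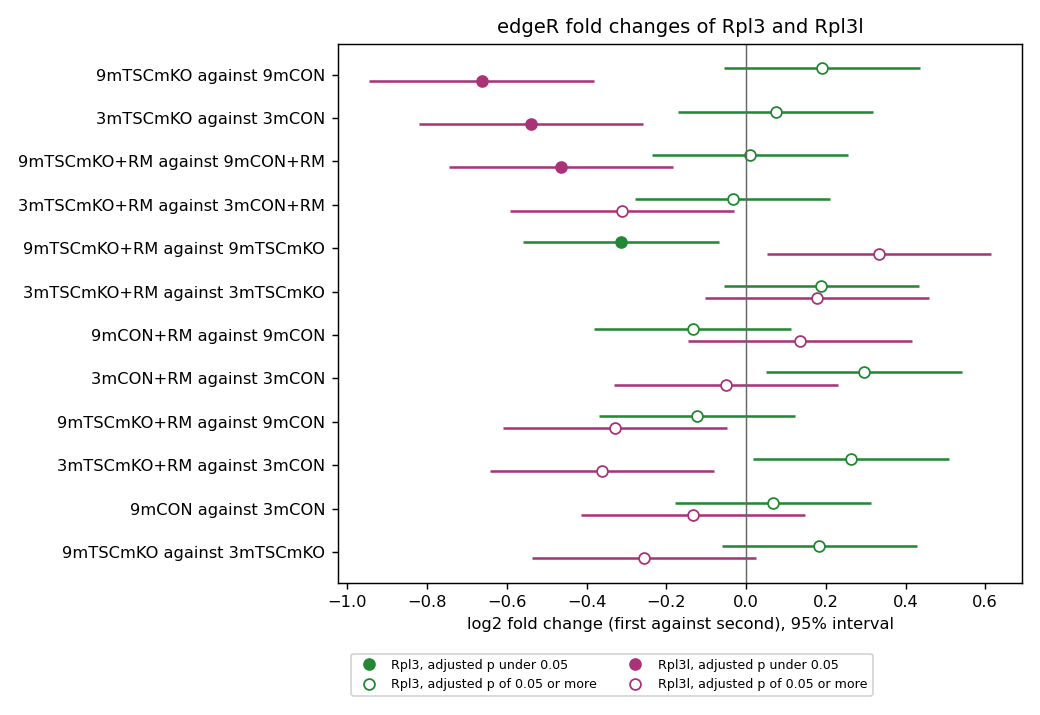
Log2 fold change of Rpl3 (green) and Rpl3l (purple) in 12 pairwise comparisons, first group against second, from edgeR with 95% intervals. Filled points passed an adjusted p of 0.05. Rpl3l passed in 3 comparisons between genotypes, all lower in TSCmKO, and Rpl3 in 1, lower with rapamycin in 9mTSCmKO.

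Because the paralogs take the same place in the ribosome, their ratio was examined per library, as Rpl3l TPM divided by Rpl3 TPM. TPM corrects for transcript length and so allows levels of different genes to be set side by side. The ratio was 8.42, 10.7, 7.87, 9.20 and 9.75 in 3mCON and 5.40, 7.24, 6.55, 4.29 and 7.32 in 3mTSCmKO. It was 6.09, 11.3, 7.43, 8.48 and 6.75 in 9mCON and 4.73, 4.12, 4.17, 4.93 and 3.82 in 9mTSCmKO. Every vehicle-treated TSCmKO library therefore held less Rpl3l per Rpl3 than every vehicle-treated control library of its age. The lowest single ratio, the lowest mean and the smallest SD were those of 9mTSCmKO, whose range overlapped that of 3mTSCmKO through replicate 4 of the latter. With rapamycin the ratio was 7.41, 9.41, 7.66, 6.21 and 6.14 in 3mCON+RM and 7.49, 6.64, 5.75, 5.19 and 5.20 in 3mTSCmKO+RM. It was 10.9, 8.37, 7.19, 9.74 and 13.9 in 9mCON+RM and 8.14, 8.23, 5.49, 6.38 and 6.67 in 9mTSCmKO+RM. All treated 9mTSCmKO muscles exceeded all untreated ones, whereas 3mTSCmKO and 3mTSCmKO+RM overlapped.

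On average the ratio was 4.35 ± 0.458 (SD, n = 5) in 9mTSCmKO against 8.0 ± 2.03 in 9mCON, a geometric fold of 0.555 (log2 difference -0.85, exact permutation test p = 0.00794, adjusted p = 0.0238 over 12 comparisons). At 3 months it was 6.16 ± 1.30 in TSCmKO against 9.20 ± 1.13 in CON, a fold of 0.660 with the same p and adjusted p in the exact permutation test. With rapamycin the ratio rose in 9mTSCmKO to 6.98 ± 1.18, a fold of 1.59 (exact permutation p = 0.00794, adjusted p = 0.0238), and 9mTSCmKO+RM then stood at 0.883 times 9mCON (exact permutation p = 0.389). In 3mTSCmKO+RM the ratio was 6.06 ± 0.996, 0.992 times that of 3mTSCmKO (exact permutation p = 0.905) and 0.655 times that of 3mCON (exact permutation adjusted p = 0.0238). A p of 0.00794 is the smallest that 5 against 5 libraries can give. The 4 comparisons named with an adjusted p of 0.0238 were those that passed out of 12, and each passed with counts in place of TPM.

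Other comparisons of the ratio did not pass. Under rapamycin the genotypes differed by a fold of 0.706 at 9 months (exact permutation adjusted p = 0.0635) and 0.824 at 3 months (exact permutation adjusted p = 0.190). In CON, the fold of the ratio with rapamycin was 1.25 at 9 months (exact permutation adjusted p = 0.254) and 0.795 at 3 months (exact permutation adjusted p = 0.0816). Between ages the folds were 0.855 in CON and 0.718 in TSCmKO (exact permutation adjusted p = 0.267 and 0.0635). Expressed as a share, Rpl3l made up 81.2% ± 1.59 of the summed TPM of the pair in 9mTSCmKO, 87.2% ± 1.92 in 9mTSCmKO+RM and 88.5% ± 2.29 in 9mCON. At 3 months its share was 85.6% ± 2.92 in TSCmKO, 85.6% ± 1.92 in TSCmKO+RM and 90.1% ± 1.08 in CON. Rpl3l was thus the major form in every library, at 79.3% to 93.3%.

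**Figure D3:**
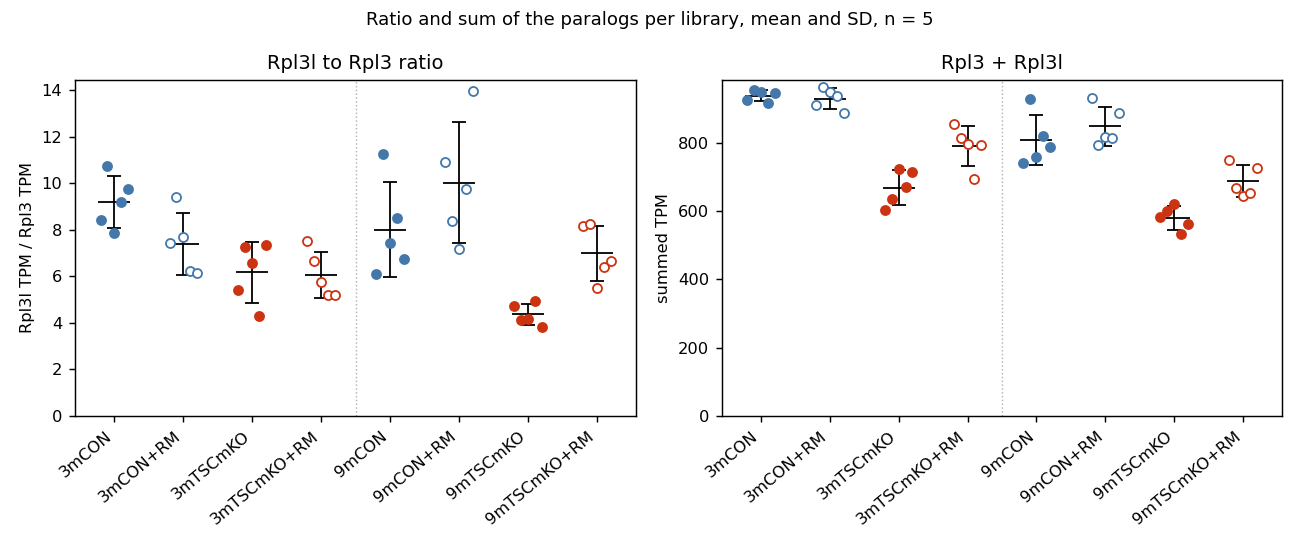
Ratio of Rpl3l TPM to Rpl3 TPM (left) and summed TPM of the pair (right) in each library, with the mean and SD of each group of 5 and symbols as for the single genes. The ratio in 9mTSCmKO (3.82 to 4.93) lies below every other group of that age, and in 9mTSCmKO+RM it runs from 5.49 to 8.23.

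The size of the ratio depends on the transcripts behind the TPM. By counts the ratio had a median of 4.61 over 40 libraries, against 7.21 by TPM. From counts and TPM of genes with a single annotated transcript, the length used for Rpl3l was estimated at 857 nt and that for Rpl3 at 1309 nt. The full-length Rpl3l model of 1375 nt carries transcript support level 5 in GENCODE M21, outside the levels to which the study text limits its reference, whereas shorter models of 1033 nt and 599 nt carry levels 1 and 3. The corresponding Rpl3 model of 1351 nt carries level 1. Rpl3l exceeded Rpl3 on both scales in every library. By counts the genotype folds of the ratio were 0.568 at 9 months and 0.652 at 3 months, and the fold with rapamycin in 9mTSCmKO was 1.55.

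The summed TPM of the pair, a measure of all uL3 mRNA, was 580 ± 35.0 in 9mTSCmKO against 807 ± 73.4 in 9mCON, a fold of 0.720, and 668 ± 50.6 in 3mTSCmKO against 938 ± 16.3 in 3mCON, a fold of 0.711 (exact permutation adjusted p = 0.0159 for both). Rapamycin was accompanied by a sum of 687 ± 47.6 in 9mTSCmKO+RM, a fold of 1.18 (exact permutation adjusted p = 0.0159), and of 791 ± 59.4 in 3mTSCmKO+RM, also a fold of 1.18 (exact permutation adjusted p = 0.0286). The sum was also lower at 9 than at 3 months, with folds of 0.858 in CON (exact permutation adjusted p = 0.0286) and 0.868 in TSCmKO (exact permutation adjusted p = 0.0238), which failed in CPM. Relative to the other large subunit proteins the log2 difference in TSCmKO was -0.54 (exact permutation adjusted p = 0.0476), against -0.20 in TPM, and that in CON was -0.37 (exact permutation adjusted p = 0.0952), against -0.22. Under rapamycin the genotypes differed by a fold of 0.810 at 9 months and 0.849 at 3 months (exact permutation adjusted p = 0.0159 for both). Treated TSCmKO muscle stood at 0.853 times the sum of 9mCON (exact permutation adjusted p = 0.0238) and at 0.841 times that of 3mCON (exact permutation adjusted p = 0.0159). Of these 4 comparisons, those of 9mTSCmKO+RM did not pass in CPM. Relative to the other large subunit proteins none of the 4 passed, and the log2 differences between treated genotypes were -0.016 at 9 months and 0.11, the opposite direction, at 3 months. In control muscle the folds with rapamycin were 1.05 at 9 months and 0.990 at 3 months (exact permutation adjusted p = 0.346 and 0.579). Relative to the other large subunit proteins the 9-month log2 difference was -0.11, the opposite direction, and did not pass. The genotype differences of the sum passed in CPM as well. The differences with rapamycin did not pass in CPM (adjusted p = 0.296 at 9 months and 0.0952 at 3 months by exact permutation). The 3-month difference with rapamycin also failed without any one of 7 libraries (exact permutation adjusted p = 0.0571), namely replicates 1, 2 and 4 of 3mTSCmKO and 1, 2, 3 and 5 of 3mTSCmKO+RM. Relative to the other large subunit proteins neither the genotype differences (exact permutation adjusted p = 0.114 at both ages) nor those with rapamycin in TSCmKO passed, whereas 3mCON+RM against 3mCON did (log2 difference -0.26, exact permutation adjusted p = 0.0476).

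That scaling divides the sum by the median TPM of 46 other large subunit genes. Rpl3 alone was at 0.141 to 0.382 times this median, lower than all 46 genes in 6 groups and than 45 in 3mTSCmKO and 3mTSCmKO+RM, where Rpl37 was lower still. Rpl3l was exceeded by 4 of the 46 genes in 3mCON, 5 in 3mTSCmKO, 7 in 9mCON and 16 in 9mTSCmKO. With rapamycin the count was 6 in 3mCON+RM, 6 in 3mTSCmKO+RM, 9 in 9mCON+RM and 10 in 9mTSCmKO+RM. The sum was at 2.47 ± 0.219 times the median in 3mCON, 2.14 ± 0.148 in 3mTSCmKO, 1.93 ± 0.332 in 9mCON and 1.47 ± 0.219 in 9mTSCmKO. The sum of the pair lay within the range of the other large subunit mRNAs in every group, and Rpl3l made up most of it. These ranks and multiples use the deposited TPM, in which the length implied for Rpl3l was 857 nt, and a longer length would lower Rpl3l and the sum against the other genes.

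**Figure D4:**
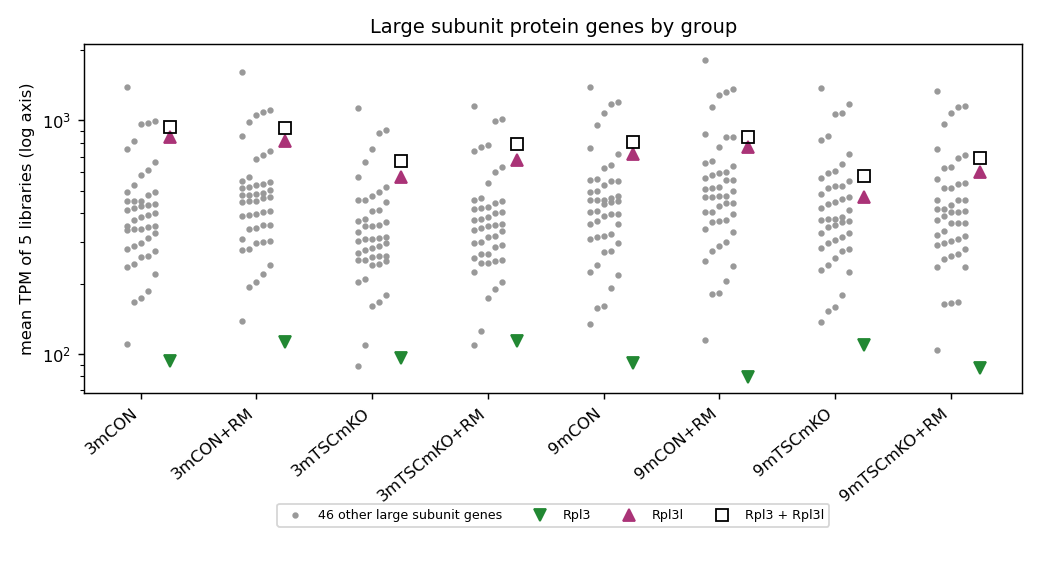
Mean TPM (log axis) of 46 other large subunit protein genes (grey points), Rpl3 (green), Rpl3l (purple) and their sum (open squares) in each group of 5 libraries. Rpl3 lies at or near the bottom in every group. Of the 46 genes, 4 exceed Rpl3l in 3mCON, 5 in 3mTSCmKO, 7 in 9mCON and 16 in 9mTSCmKO.

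The other genes of the large subunit, whose proteins assemble with uL3, were read in the same fits. In 9mTSCmKO against 9mCON, 4 of 46 large subunit genes fell and 0 rose in edgeR, with a median log2 fold change of -0.09, beside -0.02 for all genes tested. This was a smaller share than the 18.9% of all genes called lower. These were Rpl4 (-0.45, adjusted p = 0.0127), Rpl8 (-0.43, adjusted p = 0.0148), Rpl32 (-0.39, adjusted p = 0.0315) and Rpl7a (-0.42, adjusted p = 0.0474). In 3mTSCmKO against 3mCON, 8 of 46 fell and 0 rose, with a median of -0.22, beside 8.32% of all genes called lower, and Rpl4 again had the largest fall (-0.60). With rapamycin, 0 of 46 passed in edgeR in 9mTSCmKO (median 0.03, 1 at an unadjusted p under 0.05) and 0 of 46 in 3mTSCmKO (median 0.12, 4 at an unadjusted p under 0.05), where upper-quartile scaling called 2 higher. Of all genes, 32.6% were called with rapamycin in 9mTSCmKO and 23.6% in 3mTSCmKO. Between the rapamycin-treated genotypes at 9 months, the remaining comparison in which Rpl3l fell, 14 of 46 fell and 0 rose (median -0.33, with 9.33% of all genes called lower). In 9mTSCmKO against 3mTSCmKO, 23 of 46 rose and 0 fell (median 0.42, with 19.1% of all genes called higher), where Rpl3l had -0.26 (95% interval -0.54 to 0.03) and Rpl3 0.18 (-0.06 to 0.43). Of 32 small subunit genes, 1 fell with genotype at 9 months (median -0.08) and 1 at 3 months (median -0.23).

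Paralogs exist for other ribosomal proteins too, and 4 of 7 listed were tested. Rpl22l1, the paralog of Rpl22, fell in TSCmKO by 0.74 at both ages (adjusted p = 0.0213 in the older and 0.0362 in the younger mice). Rpl7l1 and Rpl36al did not pass between genotypes (0.13 and 0.17 at 9 months) but fell with rapamycin in 9mTSCmKO, by 0.42 (adjusted p = 0.00225) and 0.41 (adjusted p = 0.0155). Rps27l had 0.09 with genotype and -0.18 with rapamycin at 9 months, neither of which passed in edgeR.

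Among 13 genes for the handling of uL3 and for nonsense-mediated decay, which acts on misspliced Rpl3 transcripts, 1 rose and 1 fell at 9 months between genotypes, a smaller share than the 37.9% of all genes called. Upf2, a core decay factor, rose by 0.48 (adjusted p = 0.0120), and Hnrnph1, a splicing regulator, fell by 0.33 (adjusted p = 0.0278). Grwd1, the chaperone that escorts newly made uL3, had -0.24 (adjusted p = 0.264) and Mettl18, which methylates a histidine of uL3, had 0.10 (adjusted p = 0.753). At 3 months 0 of the 13 rose and 2 fell, Upf3a (-0.56, adjusted p = 0.0246) and Hnrnph1 (-0.46, adjusted p = 0.00420), beside 8.32% of all genes called lower. Npm1 had -0.51 there (adjusted p = 0.0747), with 165 to 232 CPM in 3mTSCmKO and 260 to 314 CPM in 3mCON. With rapamycin in 9mTSCmKO 3 of the 13 rose and 0 fell, beside 32.6% of all genes called in either direction and 15.8% called higher. These were Smg6 (0.76, adjusted p = 1.96e-06), Npm1 (0.79, adjusted p = 0.00314) and Smg5 (0.42, adjusted p = 0.00337), of which Smg5 and Smg6 act in decay and Npm1 in ribosome assembly. Npm1 also rose with rapamycin in 3mTSCmKO (1.03, adjusted p = 0.000251) and in 9mCON (1.08, adjusted p = 0.000532), and had 0.73 in 3mCON (adjusted p = 0.0917).

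Fiber-type markers moved in the same libraries as Rpl3l. In 9mTSCmKO against 9mCON, 7 of 13 fast fiber markers fell and 0 rose (median -0.39), with Mybpc2 at -1.31, Atp2a1 at -1.12, Myh4 at -1.03 and Ckm at -0.83. Their summed level was 183121 TPM in the lowest library of 9mTSCmKO, with a median of 197146, against a lowest of 236259 and a median of 245284 in 9mCON. Slow fiber markers rose in 6 of 7 cases (median 2.99), led by Myl2 at 5.04 and Tnni1 at 3.73, with a median sum of 2169 TPM in 9mTSCmKO against 229 in 9mCON. The remaining gene of this list, Myh2, which encodes the fast type IIA myosin and not a slow one, had -0.76 (adjusted p = 0.0964). All genes gave 18.9% lower and 19.1% higher in this comparison. At 3 months 2 of 13 fast markers fell and 1 of 7 slow markers rose, beside 8.32% of all genes called lower and 11.4% higher. With rapamycin in 9mTSCmKO, 6 of 13 fast markers rose and 1 fell, beside 15.8% of all genes called higher and 16.8% lower. Of 7 slow markers, Myl2 (-1.52) and Tnnc1 (-1.58) fell and Myh2 (1.75) rose there. Of 6 markers of regeneration or immature fibers, Myh8 (1.14), Myog (1.30) and Pax7 (0.84) rose and Chrng (-3.26) fell. The study text places Chrng and Myog among genes that respond to denervation. Of these 6 markers of regeneration or immature fibers, 2 rose and 2 fell with genotype at 9 months, and 1 rose at 3 months. The part of fiber type in the levels of Rpl3l and Rpl3 and in their ratio was not tested.

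Markers of other cells in the lysate were also counted. At 9 months, TSCmKO had 2 of 5 endothelial, 3 of 5 fibroblast, 3 of 4 tendon, 1 of 3 adipocyte and 1 of 3 Schwann cell markers lower, 1 of 5 leukocyte markers higher and 1 lower, and 0 of 3 erythroid markers called in edgeR, although all 3 erythroid markers were lower at an unadjusted p under 0.05. Over the 28 markers 11 were called lower and 1 higher (17 and 1 at an unadjusted p under 0.05), beside 18.9% and 19.1% of all genes. At 3 months 0 of the 28 markers of these 7 cell types were called between genotypes in edgeR, beside 11.4% of all genes called higher and 8.32% lower. Of the 28, 5 reached an unadjusted p under 0.05, 3 of them higher and 2 lower. The median sum of fibroblast markers was 530 TPM in 9mTSCmKO and 728 TPM in 9mCON, and that of leukocyte markers 20.7 and 13.2 TPM. With rapamycin in 9mTSCmKO, 1 of the 28 markers rose and 3 fell (1 and 6 at an unadjusted p under 0.05), beside 15.8% of all genes called higher and 16.8% lower. The median sums in 9mTSCmKO+RM were 312 TPM for fibroblast and 12.6 TPM for leukocyte markers. In 9mCON+RM against 9mCON, 14 of 28 fell and 0 rose, beside 6.82% of all genes called lower. The part of these cells in the level of Rpl3 was not tested.

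Across the 40 libraries the log2 levels of Rpl3 and Rpl3l had a Pearson r of -0.12, and over the 8 group means -0.28. These points share group structure and scaling, and the values are given as a description. The genes most like Rpl3l among 9639 compared were Apoo (r = 0.89), Dnaja3 (0.88), Ldha (0.88), Sdr39u1 (0.87) and Itm2a (0.87), which include a mitochondrial cristae protein, a mitochondrial chaperone and the muscle form of lactate dehydrogenase. The most opposite were Osbpl8 (-0.89), Ppfibp1 (-0.87), Gm14149 (-0.86), Mef2c (-0.86), a transcription factor of muscle genes, and Clic4 (-0.85). Rpl3 had weaker matches. Its pattern was closest to that of Tuba1c (0.79), Tuba1b (0.76), Eef1a1 (0.73), the translation elongation factor, Sod3 (0.70) and Dap (0.69), and farthest from that of Rab10 (-0.70), Krr1 (-0.66), Rab6a (-0.65), Eif4g3 (-0.62) and Fxr1 (-0.62). No gene appeared on the lists of both paralogs.

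The genes beside the pair on the chromosome were read in the same fits, without a test of their difference from the pair. Msrb1, a methionine sulfoxide reductase gene that begins 498 bp from the end of Rpl3l at chr17:24736642-24742778, rose in TSCmKO by 1.09 in the older mice (adjusted p = 1.35e-06 in edgeR) and by 1.06 in the younger (adjusted p = 4.42e-06). It fell with rapamycin by 0.87 in 9mTSCmKO and by 0.94 in 3mTSCmKO. Ndufb10, a subunit gene of respiratory complex I on the other side of Rpl3l, had log2 fold changes of -0.11 in the older mice (adjusted p = 0.638) and -0.32 in the younger (adjusted p = 0.206). Syngr1, at chr15:80091334-80119501 on the opposite strand, overlaps only an Rpl3 model of 816 nt with support level 5, not the full-length model, which ends at 80083406. It rose by 0.42 in the older mice (adjusted p = 0.0326) and had 0.27 in the younger (adjusted p = 0.241). Pdgfb, a growth factor gene on the far side of Rpl3, had -0.06 at 9 months and 0.19 at 3 months. The libraries were stranded and were assigned by strand, per the study text, so reads of Syngr1 and Rpl3 could be told apart.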

How the data were processed

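Poly(A) RNA of 40 EDL muscles was sequenced as stranded single-end libraries. The authors trimmed adapters with cutadapt 1.9.1 and assigned reads with kallisto 0.43.1 to Ensembl transcripts of GRCm38, sharing a read among the transcripts it hit. They deposited estimated counts per gene and the TPM that the authors derived from them. The submitters' processing notes name these versions.

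Estimated counts were rounded to whole numbers. Genes at 1 CPM or more in at least 5 libraries were tested with edgeR 4.0.16 (R 4.3.3, TMM, robust quasi-likelihood, 8 group means, two-sided, Benjamini-Hochberg over 13543 genes, threshold 0.05) in 12 pairwise contrasts and 3 interactions. Ratios and sums of TPM were compared on the log2 scale by two-sided exact permutation of 5 against 5 libraries (252 arrangements), adjusted over 12 comparisons. Both procedures were tested on simulated data. Sequences came from GENCODE M21 (GRCm38), aligned with Biopython 1.88. Pattern likeness was Pearson's r of log2 CPM (prior count 2, mean CPM of 5 or more). Named genes were the members, Tsc1, up to 4 of each list with the largest called change at 9 months, the 5 most like and 5 most opposite genes, and the neighbours. Further list genes were named after their values were seen. Members and lists were chosen with earlier results of these data known. Of the listed genes 3 are not rows of the table, and 0 value columns lacked a label. The labels do not number replicates by litter or batch. Alternatives were DESeq2 1.42.0, limma 3.58.1 on log2(TPM + 1), other scalings, no filter, insert size as a term, a replicate block, the compared groups alone, and each library left out. Intervals are 95% and counting errors cover sampling of reads only.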

Additional observations from a re-analysis of the deposited data

Results flagged for a closer look

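Rpl3l in 9mCON replicate 2, at 517 CPM, stood apart from the other 4 libraries of its group, which lay between 292 and 346 CPM, with a gap of 0.760 of the range of the group against a critical value of 0.71 (Dixon). Of 32 group and quantity combinations examined, 1 was marked in this way, and chance marks about 1 in 20. Without this library the fall of Rpl3l in 9mTSCmKO was -0.49 on the log2 scale (adjusted p = 0.00270 in edgeR), against -0.66 with it.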

How the results depend on the processing

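The falls of Rpl3l between vehicle-treated genotypes passed in each alternative, from -0.73 to -0.49 at 9 months and from -0.60 to -0.47 at 3 months. For the 4 comparisons of the ratio that passed, the groups did not overlap, so the permutation p without a library says nothing about stability. Their log2 differences then ranged from -0.94 to -0.72 (9mTSCmKO against 9mCON), -0.67 to -0.47 (3mTSCmKO against 3mCON), 0.61 to 0.75 (9mTSCmKO+RM against 9mTSCmKO) and -0.69 to -0.55 (3mTSCmKO+RM against 3mCON). Results for the single genes that changed side follow. Limma on log2(TPM + 1) called Rpl3l in 3mTSCmKO+RM against 3mCON+RM (-0.27), 9mTSCmKO+RM against 9mTSCmKO (0.35), 3mTSCmKO+RM against 3mTSCmKO (0.24), 9mTSCmKO+RM against 9mCON (-0.25), 3mTSCmKO+RM against 3mCON (-0.32) and 9mTSCmKO against 3mTSCmKO (-0.28). Upper-quartile scaling called Rpl3l in 9mTSCmKO+RM against 9mCON (-0.35). Fits of the compared groups alone lost Rpl3l in 9mTSCmKO+RM against 9mCON+RM (-0.45) and called 3mTSCmKO+RM against 3mCON+RM (-0.29) and 3mTSCmKO+RM against 3mCON (-0.35 for Rpl3l, 0.28 for Rpl3). The fall of Rpl3 with rapamycin in 9mTSCmKO missed the threshold without the filter (-0.29), with insert size (-0.34), with the groups alone (-0.32) and in limma (-0.32).

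The sum of the pair depended most on the scale. In CPM these fell short: -0.39 for 9mTSCmKO+RM against 9mCON+RM, 0.19 and 0.18 for rapamycin in 9mTSCmKO and 3mTSCmKO, -0.29 for 9mTSCmKO+RM against 9mCON, -0.13 for 9mCON against 3mCON and -0.16 for 9mTSCmKO against 3mTSCmKO. Relative to the other large subunit proteins, values were -0.38 and -0.21 between vehicle-treated genotypes at 9 and 3 months and -0.016 for 9mTSCmKO+RM against 9mCON+RM. They were 0.25 and 0.057 for rapamycin in 9mTSCmKO and 3mTSCmKO, -0.13 for 9mTSCmKO+RM against 9mCON, -0.15 for 3mTSCmKO+RM against 3mCON and -0.37 for 9mCON against 3mCON, none past the threshold, whereas 9mTSCmKO against 3mTSCmKO passed at -0.54. The difference between 3mTSCmKO+RM and 3mCON+RM turned to 0.11, and 3mCON+RM against 3mCON then passed at -0.26. The cause was not tested.

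With each library left out, results that changed side ranged as follows on the log2 scale. Rpl3l had -0.57 to -0.34 for 9mTSCmKO+RM against 9mCON+RM, 0.20 to 0.40 for rapamycin in 9mTSCmKO and -0.44 to -0.15 for 9mTSCmKO+RM against 9mCON, and Rpl3 had -0.41 to -0.24 for rapamycin in 9mTSCmKO. Of these, Rpl3l with rapamycin in 9mTSCmKO passed without replicate 3 of either group (0.40), and Rpl3l in 9mTSCmKO+RM against 9mCON passed without replicate 3 (-0.37) or 5 (-0.38) of 9mCON or replicate 1 of 9mTSCmKO+RM (-0.44). The ratio had -0.61 to -0.37 for 9mTSCmKO+RM against 9mCON+RM, passing without 9mCON+RM replicate 3, -0.42 to -0.27 for rapamycin in 3mCON, passing without 3mCON+RM replicate 2, and -0.60 to -0.41 for 9mTSCmKO against 3mTSCmKO, passing without 3mTSCmKO replicate 4. The sum had 0.21 to 0.29 for rapamycin in 3mTSCmKO and -0.27 to -0.19 for 9mCON against 3mCON, where leaving out replicate 2, 3 or 5 of 3mCON or 1, 3, 4 or 5 of 9mCON gave an exact permutation adjusted p of 0.0571.

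Same-numbered libraries of compared groups did not deviate together in all 5 pairs of any comparison, so the numbers were not taken as a pairing, and the fit with a replicate block changed no call of the genes (Rpl3l -0.66 at 9 months and -0.54 at 3 months). Other scalings moved the median of all genes by less than 0.1 on the log2 scale. Counting error was at most 4.05% of a count, and the effect of depth on the intervals was not tested.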
